A study of Homo sapiens with 4 samples.

Results

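The U3 small nucleolar RNA (snoRNA) was examined through its 4 gene copies SNORD3A, SNORD3B-1, SNORD3B-2 and SNORD3C, taken by symbol from a table of 18276 genes. All 4 had counts in every library. In libraries of RNA immunoprecipitated for SF3B6 (IP), U3 took 1.61% and 2.11% of the counts in genes, against 1.09% and 0.792% in input RNA. SNORD3A and SNORD3C were called higher in IP, as were 2.70% of all tested genes, while the SNORD3B copies were not. The SNORD3A call did not hold in every alternative fit. The SNORD3C call rested on 23 and 10 IP counts and was lost under some other scalings and without the expression filter. SNORD3A made up more of the U3 counts in both IP libraries than in both inputs. Measured against a larger library total, the one behind the deposited FPKM values, U3 stood lower in IP, so its direction depended on what it was measured against. Most genes were lower on that scale, with 57.2% of those tested called lower, and the U3 sum was not called (edgeR adjusted p = 0.257).

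U3 belongs to the box C/D class of snoRNAs. Most of that class guide methylation of ribosomal RNA, whereas U3 pairs with the ribosomal precursor inside the small subunit (SSU) processome and is needed for the early cleavages that release the small-subunit RNA. Human U3 is made from several nearly identical genes, each with its own promoter, and the finished particle holds the box C/D core proteins fibrillarin, NOP56, NOP58 and SNU13 together with the U3-specific protein RRP9. SNU13 is also a protein of the U4 snRNA particle of the spliceosome.

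MDA-MB-231 cells, a mesenchymal-like triple-negative human breast cancer line, gave 2 SF3B6 IP libraries and 2 input libraries. Per the labels' protocols all 4 share irradiation of the cells, lysis, DNase and micrococcal nuclease digestion, and the IP libraries hold the RNA that came down with the SF3B6 antibody. SF3B6 is a small protein of the U2 small nuclear ribonucleoprotein that binds near the branch point of introns, and the experiment addresses which RNAs it contacts. An IgG antibody named in the protocols was not analysed here, so recovery without regard to SF3B6 is not separated from binding. The cell line field of the labels differs in its last digit between samples, while all titles give MDA-MB-231. Counts in genes came to 55492 and 30431 in IP 1 and IP 2, against 317190 and 519836 in input 1 and input 2, so both IP libraries were the shallower ones. The mesenchymal markers AXL (97 and 46 counts in IP, 871 and 1537 in input) and VIM (43 and 16, against 286 and 532) were well counted. Other markers of this kind were less counted, with CD44 at 7 and 7 against 52 and 94. MSN had 13 and 8 against 72 and 129, and CAV1 had 5 and 0 against 41 and 91. In both inputs CD44, MSN and CAV1 lay below ERBB2. The epithelial markers CDH1 (1 and 0, against 1 and 3) and EPCAM (1 and 0, against 2 and 4) were near 0, KRT19 had 10 and 5 counts against 64 and 127, and ERBB2 had 7 and 3 against 76 and 147. ESR1 and PGR were not analysed here.

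The 4 genes lie in 2 pairs on chromosome 17 (GRCh38.p14, RefSeq coordinates). SNORD3B-1 (ENSG00000265185.6) spans 19061912 to 19062128 and SNORD3B-2 (ENSG00000262074.7) spans 19063920 to 19064136, with 1791 bases between them. SNORD3A (ENSG00000263934.5) spans 19188016 to 19188232 and SNORD3C (ENSG00000264940.5) spans 19190029 to 19190245, with 1796 bases between them. The pairs are 123879 bases apart. Within 10 kb of each gene RefSeq lists no gene but the other member of its pair. RefSeq gives each copy a length of 217 bases, the RNA itself. The lengths implied by the deposited counts and FPKM were longer, at 699 bases for SNORD3A, 758 for SNORD3B-1, 791 for SNORD3B-2 and 581 for SNORD3C. The values of these rows therefore refer to gene models 2.68 to 3.65 times as long as the RNA, and their counts may include reads outside the 217 bases. For SNORD17, SNORD15B and SNORD94, other C/D box snoRNAs, the implied length was that of RefSeq (237, 146 and 137 bases). They were among the small RNA genes from which the library totals were recovered, so their match is partly built in. Of those genes, 23 of 38 in input 1 and 25 of 43 in input 2 gave the total within 1%. A mismatch with the RefSeq length was therefore not particular to U3. A further chromosome 17 copy, SNORD3D, was not analysed here. One more row is named U3, on chromosome 18, and it had 1 count in input 2 and 0 in the other libraries.

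SNORD3A held most U3 counts. It had 821 and 610 counts in IP, against 2992 and 3465 in input, which is 1.48% and 2.00% of counts in genes, against 0.943% and 0.667%. Both IP libraries lay above both inputs. The Wilson 95% intervals, which cover counting error only, were 1.38% to 1.58% and 1.85% to 2.17% in IP, against 0.910% to 0.978% and 0.645% to 0.689% in input. Within each group the intervals of the 2 libraries did not overlap either, so libraries of 1 group differed by more than counting error. By count SNORD3A was at rank 4 and rank 3 of all genes in IP, against rank 9 in both inputs.

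The other copies were much less counted. SNORD3B-1 had 31 and 18 counts in IP, against 277 and 419 in input, or 0.0559% and 0.0592% of counts in genes, against 0.0873% and 0.0806%. Both IP libraries lay below both inputs for this copy. SNORD3B-2 had 19 and 5 counts in IP, against 124 and 154 in input, or 0.0342% and 0.0164%, against 0.0391% and 0.0296%. Its groups overlapped, since IP 1 lay between the inputs. SNORD3C had 23 and 10 counts in IP, against 76 and 81 in input, or 0.0414% and 0.0329%, against 0.0240% and 0.0156%. Both IP libraries lay above both inputs, but on 33 IP counts in all. Reads of near-identical copies may have been split or assigned in a way the tables do not show, so single-copy values are less certain than the sum of the 4.

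**Figure D1:**
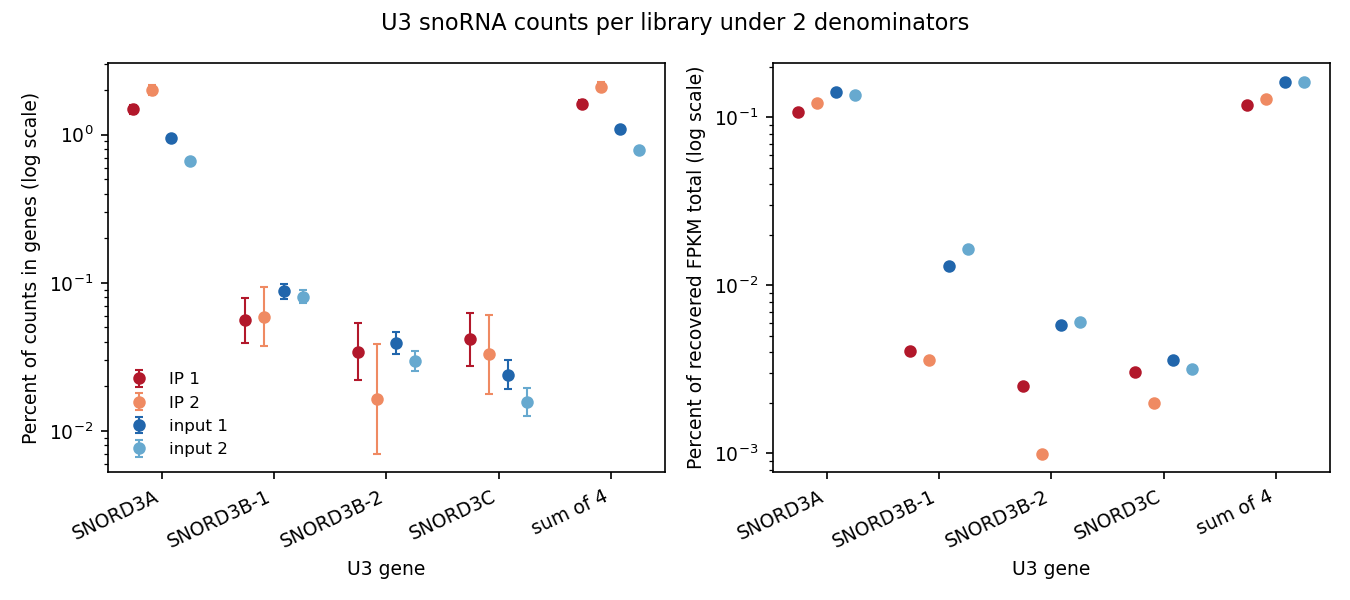
U3 gene counts in each library (points) as a percent of counts in genes (left, with Wilson 95% intervals) and as a percent of the library total recovered from the FPKM table (right), both on log axes. On the left SNORD3A, SNORD3C and the sum of 4 are higher in both IP libraries than in both inputs, and on the right all 4 copies and the sum are lower in both IP libraries.

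Tested with edgeR's quasi-likelihood fit across all 3668 genes that passed the expression filter, SNORD3A and SNORD3C were called higher in IP, and SNORD3B-1 and SNORD3B-2 were not called. Of all tested genes 2.70% were called higher and 1.36% lower, and 20.9% and 28.5% had both IP libraries above or below both inputs. SNORD3A stood at 22329 ± 6012 normalised CPM (TMM-scaled counts per 1000000 counts of tested genes) in IP and 8795 ± 2449 in input (SD, n = 2 libraries each), so its log2 fold change was 1.34 with an SE of 0.26 (edgeR adjusted p = 0.000995). SNORD3C stood at 471 ± 50.0 in IP and 216 ± 72.3 in input, a log2 fold change of 1.24 ± 0.34 (edgeR adjusted p = 0.0261). SNORD3B-1 stood at 733 ± 71.9 in IP and 914 ± 85.2 in input, with a log2 fold change of -0.34 ± 0.23 that did not pass (edgeR adjusted p = 0.499). SNORD3B-2 stood at 318 ± 142 in IP and 375 ± 86.5 in input, with a log2 fold change of -0.04 ± 0.33 that did not pass (edgeR adjusted p = 0.975).

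The summed counts of the 4 copies were 894 and 643 in IP, against 3469 and 4119 in input. The sum stood at 19717 and 28009 normalised CPM in IP, against 12201 and 8388 in input, with both IP libraries above both inputs. It was 2.31-fold higher in IP, a log2 value of 1.21 with an SE of 0.26 (edgeR adjusted p = 0.00275). The median of all tested genes was -0.06. The calls of the sum, SNORD3A and SNORD3C were lost without input 1 (edgeR adjusted p = 0.697, 0.692 and 0.692) and without input 2 (0.681, 0.690 and 0.690), fits in which edgeR called 0 of the 3668 genes. SNORD3C also lost its call without IP 1 (0.479) or IP 2 (0.121), with DESeq2 (0.279), with no expression filter (0.495), with upper quartile scaling (0.0851) and with library totals (0.104), as did the sum with library totals (0.0549). The U3 share followed depth in reverse order over the 4 libraries, and since both IP libraries were shallower, depth and IP cannot be told apart.

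The direction of U3 turned with the denominator. The FPKM table rests on library totals that, recovered from counts, FPKM and lengths, came, in units of 1000000, to 0.758 and 0.501 in IP, against 2.12 and 2.55 in input. Genes held 7.32% and 6.07% of these totals in IP, against 15.0% and 20.4% in input, and what makes up the remainder is not known from the files. Relative to them U3 took 0.118% and 0.128% in IP, against 0.164% and 0.162% in input, so both IP libraries lay below both inputs. In FPKM, SNORD3A was at 1550 and 1741 in IP, against 2018 and 1946 in input. SNORD3B-1 was at 54.0 and 47.4 FPKM in IP, against 172 and 217 in input. SNORD3B-2 was at 31.7 and 12.6 FPKM, against 73.9 and 76.5, and SNORD3C at 52.2 and 34.3 FPKM, against 61.7 and 54.7.

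With these totals the log2 fold change was -0.40 for the sum, -0.27 for SNORD3A and -0.40 for SNORD3C (edgeR adjusted p = 0.257, 0.458 and 0.502). SNORD3B-1 and SNORD3B-2 were then called lower, with log2 fold changes of -1.93 and -1.69 (edgeR adjusted p = 0.00152 and 0.0112). The median of all tested genes was -1.65 there, with 17 genes called higher and 2098 lower (57.2% of those tested). Relative to that median, SNORD3A was at 1.38, SNORD3C at 1.25, SNORD3B-1 at -0.28 and SNORD3B-2 at -0.04, compared with 1.40, 1.30, -0.28 and 0.02 under TMM. A change of library scaling moves all genes by about the same amount, so these differences from the median are nearly fixed by construction.

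**Figure D2:**
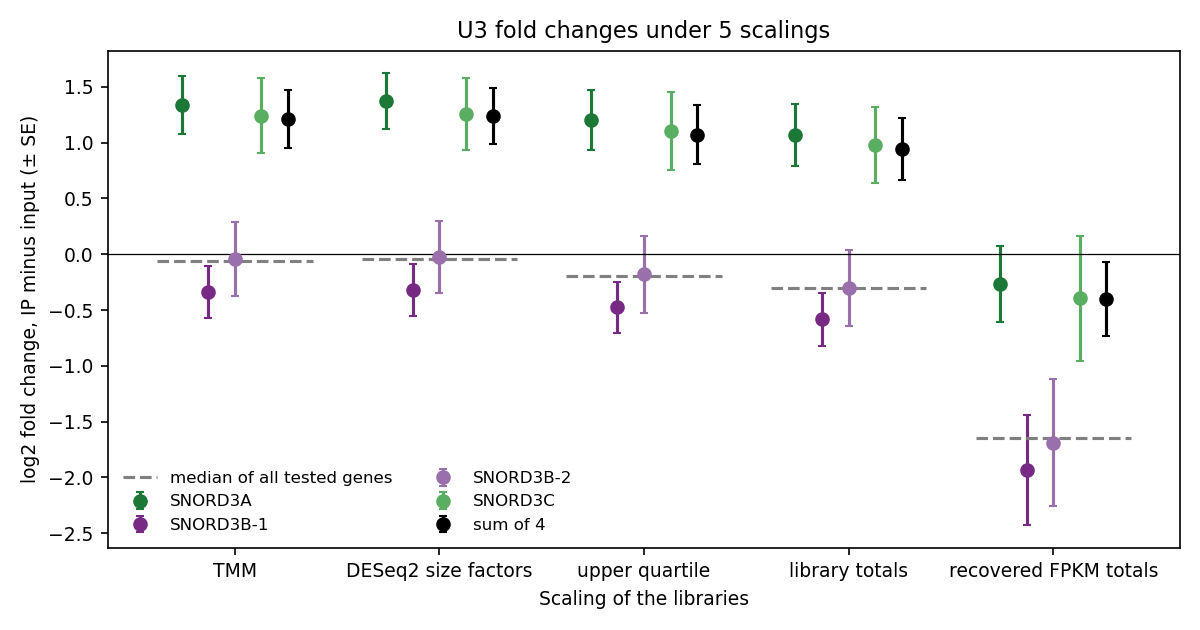
Log2 fold changes of the 4 U3 copies and their sum (points, error bars are SE), IP minus input, in edgeR fits under 5 scalings of the libraries, with the median of all tested genes in each fit as a dashed line. SNORD3A, SNORD3C and the sum lie above 0 in 4 scalings and below 0 with the recovered FPKM totals, where the dashed line moves down with them.

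Per length SNORD3A was the leading U3 copy in every library. By FPKM as deposited it was at rank 8 and rank 5 of all genes in IP, against rank 10 and rank 12 in input. Set on the 217 bases of the RNA, its level became 4993 and 5608 FPKM in IP, against 6500 and 6270 in input. That would be rank 2 in both IP libraries, and rank 2 and rank 3 in input. Setting a copy on this length assumes that all its counts fell inside the 217 bases, so these levels are upper limits. SNORD3B-1 followed in input at 602 and 758 FPKM on that length, and in IP at 189 and 166 FPKM. SNORD3C, at 140 and 91.9 FPKM in IP and 165 and 147 FPKM in input, and SNORD3B-2, at 116 and 46.0 in IP and 269 and 279 in input, were lowest. In input the order was SNORD3A, SNORD3B-1, SNORD3B-2 and SNORD3C in both libraries. In IP the last 3 lay closer together, and the difference between SNORD3B-2 and SNORD3C was within the spread of their libraries.

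The make-up of U3 counts needs no library scaling. SNORD3A made up 91.8% and 94.9% of U3 counts in IP, against 86.2% and 84.1% in input, with Wilson 95% intervals of 89.9% to 93.5% and 92.9% to 96.3% in IP, and 85.1% to 87.4% and 82.97% to 85.2% in input. SNORD3B-1 made up 3.47% and 2.80% in IP, against 7.99% and 10.2% in input, and SNORD3B-2 made up 2.13% and 0.778%, against 3.57% and 3.74%. SNORD3C made up 2.57% and 1.56% in IP, against 2.19% and 1.97% in input, where the groups overlapped.

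The mean share of SNORD3A was 93.4% ± 2.14 in IP and 85.2% ± 1.504 in input (SD, n = 2 libraries each), a difference of 8.17 percentage points (exact permutation test, two-sided, p = 0.333, the smallest that 2 against 2 libraries allow). It lay between 6.65 and 9.68 points when each library was left out in turn. The inputs differed from each other in make-up beyond counting error (chi-square 11.4 on 3 degrees of freedom, p = 0.00966), while the IP libraries did not pass (7.05, p = 0.0704). The minor copies held only 73 and 33 counts in IP, against 477 and 654 in input, so the IP test could detect less. It does not show that make-up was steadier in IP. These intervals and tests treat reads as independent and cover counting error only.

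**Figure D3:**
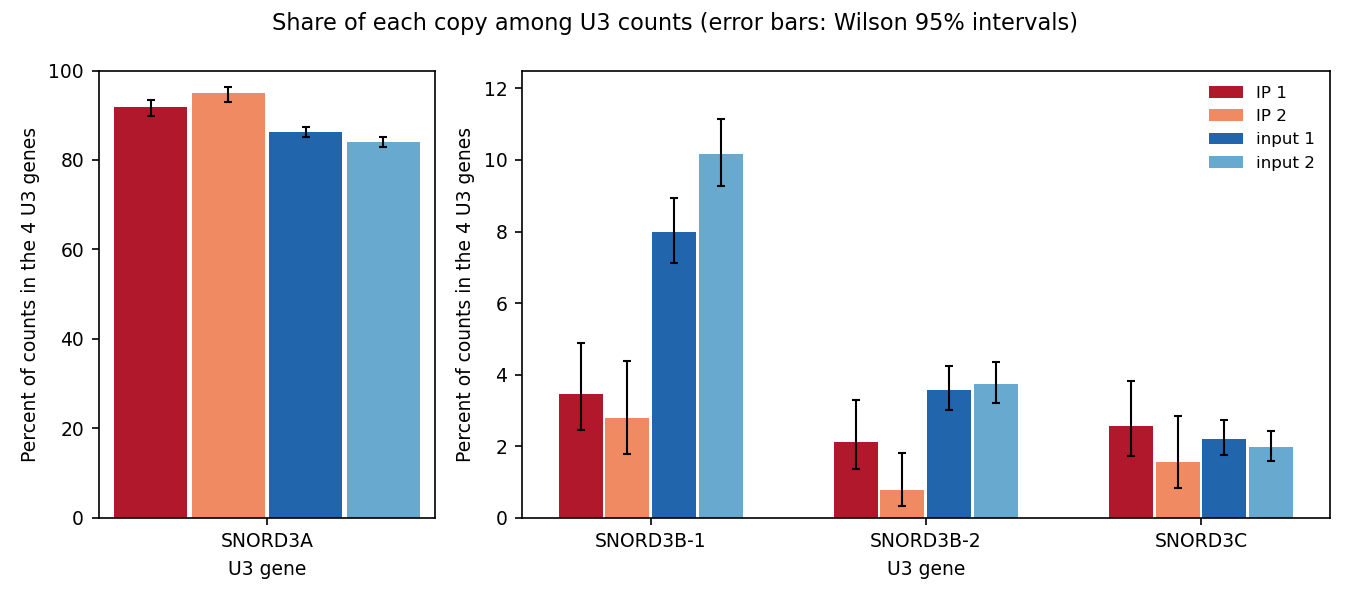
Percent of the counts in the 4 U3 genes that each copy held in each library (bars, with Wilson 95% intervals), SNORD3A on the left and the minor copies on the right on an axis of their own. SNORD3A is higher and both SNORD3B copies are lower in the 2 IP libraries, and SNORD3C overlaps between groups.

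The copies were also grouped by genomic pair, a grouping made after the values were seen. Within the pairs the ratio of counts overlapped between groups. SNORD3A had 35.7 and 61 counts for each count of SNORD3C in IP, against 39.4 and 42.8 in input, and SNORD3B-1 had 1.63 and 3.60 for each of SNORD3B-2, against 2.23 and 2.72. Between the pairs the groups were apart. SNORD3A and SNORD3C together had 844 and 620 counts in IP, against 3068 and 3546 in input, while SNORD3B-1 and SNORD3B-2 together had 50 and 23, against 401 and 573. There were 16.9 and 27.0 counts of the first pair for each of the second in IP, against 7.65 and 6.19 in input. On the log2 scale this ratio was 1.63 higher in IP (4.41 ± 0.48 in IP, 2.78 ± 0.22 in input, SD, n = 2 libraries each; exact permutation p = 0.333), and 1.29 to 1.97 with each library left out.

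Without SNORD3A, whose counts dominate that ratio, SNORD3C alone against both SNORD3B copies showed the same direction. Its log2 ratio to their sum was -1.12 and -1.20 in IP, against -2.40 and -2.82 in input, a difference of 1.45 (exact permutation p = 0.333). This comparison rests on 33 SNORD3C and 73 SNORD3B counts in IP. It is not an independent check, since the pairs were grouped with these values known. By share of counts in genes SNORD3C was already higher in IP. The SNORD3B sum was lower, at 0.0901% and 0.0756% in IP, against 0.126% and 0.110% in input.

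Set against other small RNAs of the same libraries, U3 was higher in IP relative to 5 families and lower relative to 3. Each of these 8 ratios had both IP libraries on one side of both inputs, and each exact permutation p was 0.333, the smallest possible. All 8 share the U3 counts, so they are not separate results. Each family is the sum of all rows matched by name, such as 62 for 7SL RNA, 49 for 5S rRNA and 26 for U1 snRNA. Of all tested genes, 49.4% had IP and input libraries that did not overlap in normalised CPM. For each count of RNase MRP RNA, which also acts in ribosomal RNA processing, there were 4.06 and 5.59 U3 counts in IP, against 1.61 and 1.37 in input. The log2 difference was 1.69, the most positive of the 8. For H/ACA box snoRNAs and scaRNAs together, which guide pseudouridylation and small nuclear RNA modification, the numbers were 15.7 and 16.5 in IP, against 6.25 and 4.70 in input, a log2 difference of 1.57. For U1 snRNA, which recognises the upstream splice site, they were 4.52 and 6.18 in IP, against 2.23 and 2.42 in input (1.19 on the log2 scale). For 7SK RNA, a regulator of transcript elongation, they were 2.65 and 3.05 in IP, against 1.36 and 1.19 in input (1.16).

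Relative to the other C/D box snoRNAs U3 was also higher in IP, and the difference was larger without SNORD17, which held most of their counts. There were 5.66 and 3.92 U3 counts in IP for each count of these 23 rows, against 3.57 and 2.97 in input, a log2 difference of 0.53, and 0.27 without IP 1. With SNORD17 left out, a choice made after seeing the data, the other rows had 18 and 8 counts in IP, against 109 and 195 in input. There were then 49.7 and 80.4 U3 counts for each of theirs in IP, against 31.8 and 21.1 in input, a log2 difference of 1.29 (exact permutation p = 0.333). Relative to the last 3 families U3 was lower in IP. For each count of 7SL RNA, part of the signal recognition particle, there were 0.207 and 0.144 U3 counts in IP, against 0.300 and 0.328 in input (log2 difference -0.86). For each count of 5S rRNA there were 2.81 and 3.80 in IP, against 9.15 and 10.8 in input (-1.60). For each count of U2 snRNA, the RNA of the particle that holds SF3B6, there were 4.78 and 15.7 in IP, against 28.7 and 65.4 in input (-2.32). The U2 counts were few, at 187 and 41 in IP, against 121 and 63 in input, summed over 17 rows. The U2 ratio spread widely within both groups, and its log2 difference was -1.46 without IP 1 and -3.18 without IP 2.

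**Figure D4:**
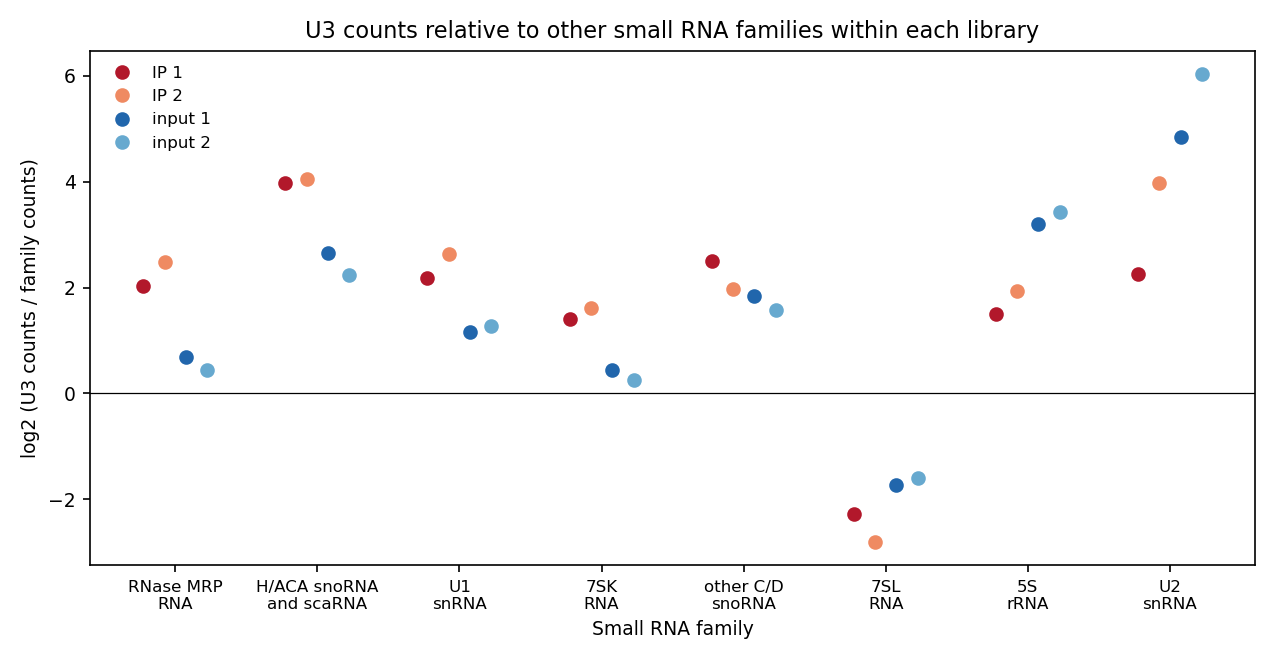
Log2 ratio of summed U3 counts to the summed counts of 8 other small RNA families in each library (points), with families ordered by the difference IP minus input. The IP points lie above the input points from RNase MRP RNA to the other C/D box snoRNAs and below them for 7SL, 5S rRNA and U2.

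Among the other C/D box snoRNAs, SNORD17 had 140 and 156 counts in IP, against 863 and 1191 in input, and was called higher, by 0.80 on the log2 scale with an SE of 0.24 (edgeR adjusted p = 0.0468). SNORD15B had 10 and 4 counts in IP, against 66 and 95 in input, at -0.03 (edgeR adjusted p = 0.988). SNORD94 had 3 and 2 in IP, against 25 and 55 in input, at -0.49 (edgeR adjusted p = 0.813). SNORD67 (0 and 0 in IP, 2 and 7 in input), SNORD13, a C/D box RNA of ribosomal RNA acetylation (2 and 1, against 8 and 16), and SNORD14E (0 and 0, against 0 and 2) had too few counts to be tested.

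The messengers of proteins that work with U3 were counted too thinly for most to be tested. Of a list of 55 genes for box C/D core, U3-specific, SSU processome and snoRNP assembly or transport proteins, 52 had a row and 11 passed the expression filter. edgeR called 0 of the 11 higher and 0 lower, against 4.06% of all tested genes called in either direction, with 2 at an unadjusted p under 0.05. Those were TBL3, of the UTP-B complex (log2 value 1.34, edgeR adjusted p = 0.204), and RRP7A, of the SSU processome (1.29, edgeR adjusted p = 0.127). DESeq2 also called 0, with 1 at an unadjusted p under 0.05. It gave 1849 of the 3668 genes no adjusted p, and such genes counted as not called. With the FPKM totals edgeR called 4 of the 11 lower, where 57.2% of all tested genes were called lower. On log2(FPKM + 1) and log2(FPKM + 0.1) limma called 7 and 4 of the 11 lower, where 69.5% and 50.8% of all tested genes were. The median log2 fold change of the 11 was 0.04, beside -0.06 for all tested genes.

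Of the core proteins of the U3 particle, NOP56 passed the filter. It had 9 and 4 counts in IP, against 44 and 74 in input, with a log2 fold change of 0.32 ± 0.44 (edgeR adjusted p = 0.817). FBL, which encodes fibrillarin, the methyltransferase, had 2 and 1 counts in IP, against 17 and 38 in input. NOP58 had 0 and 0, against 2 and 5, SNU13 had 1 and 1, against 6 and 14, and RRP9 had 1 and 0, against 6 and 16. With a floor of 3 counts, the IP libraries resolve no level under 54.1 and 98.6 CPM, and FBL, NOP58, SNU13 and RRP9 lay below these limits in both.

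Among 1708 other tested genes with at least 100 counts over all libraries, the 5 whose centred log2 CPM over the 4 libraries lay nearest to that of the U3 sum were of several classes. MT-CO3, a mitochondrial messenger for a complex IV subunit, was nearest at a Euclidean distance of 0.16 on the log2 scale, with 24 and 15 counts in IP, against 90 and 104 in input. RNU4-1, a U4 snRNA gene, was at 0.21, with 49 and 39 counts in IP, against 170 and 230 in input. INPP5E, an inositol phosphatase gene, was at 0.22, and MEX3D, which encodes an RNA-binding protein, was at 0.24. SNHG1, a snoRNA host gene, was at 0.31, with 29 and 24 counts in IP, against 117 and 176 in input. The measure rests on 4 libraries. Between the U3 copies themselves the distances were 0.59 for SNORD3A and SNORD3C and 0.81 for SNORD3B-1 and SNORD3B-2, and from 1.499 to 1.93 for the 4 combinations across the pairs. These distances restate the values behind the fold changes of the copies, so they are no further check on the pairing.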

How the data were processed

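The authors deposited raw read counts per gene and FPKM values of the same genes, 1 column per library. HISAT2, HOMER and hg38 are named in the submitters' processing notes without role or version. The sources used here do not name the counter, its strand setting or its handling of multiply mapped reads. FPKM deposited by the authors are counts per kilobase and per 1000000 of a library total, which was recovered as the median of count / (FPKM × RefSeq length) over 17, 13, 38 and 43 small RNA genes with at least 20 counts in IP 1, IP 2, input 1 and input 2. Of these, 8, 6, 23 and 25 gave the total within 1%. Implied lengths are rounded to whole bases.

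All genes were fitted with edgeR 4.0.16 (R 4.3.3): default expression filter, TMM (factors 0.968, 0.860, 1.06 and 1.13), quasi-likelihood test, Benjamini-Hochberg adjustment over 3668 genes, threshold 0.05. The U3 sum replaced the 4 rows in a second fit. The design text calls the libraries biological replicates. Replicate libraries differed by more than counting noise (chi-square per degree of freedom above 1 in both groups), so each counted once. Wilson intervals came from statsmodels 0.14.6. Alternatives were other scalings and filters, DESeq2 1.42.0, limma 3.58.1 on log2(FPKM + 1) and log2(FPKM + 0.1), a replicate block and leaving out each library. Fits were tested on simulated data. The text names the 4 members, other rows named U3, the 5 most counted other C/D box snoRNAs and those of ribosomal RNA processing, the core proteins and called members of the protein list, neighbours within 10 kb and the 5 nearest genes. TBL3 and RRP7A fall outside that rule and were named after their values were seen. Members, lists and tests were chosen with earlier results of these data known. No sequences of the U3 genes are shown.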

Additional observations from a re-analysis of the deposited data

How the results depend on the processing

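The log2 fold changes of SNORD3A, SNORD3C and the U3 sum were negative with the recovered FPKM totals (-0.27, -0.40 and -0.40) and on the FPKM scale, at -0.27, -0.45 and -0.39 with limma on log2(FPKM + 1), with or without a filter, and at -0.27, -0.45 and -0.39 on log2(FPKM + 0.1). The U3 share was then lower in IP, with a difference of -0.0395 percentage points in place of 0.919. SNORD3B-1 and SNORD3B-2 were called lower in the filtered FPKM fits (-1.93 and -1.69 with the totals, -1.91 and -1.85 on log2(FPKM + 1), -1.93 and -1.90 on log2(FPKM + 0.1)). Without a filter limma called neither (adjusted p = 0.140 for both), nor any other gene. Same-numbered libraries did not deviate together (r = 0.00044 across genes). With a replicate block SNORD3A (1.34, edgeR adjusted p = 0.0610), SNORD3C (1.09, 0.0607) and the sum (1.21, 0.128) did not pass. The sum did not pass with library totals (0.94), nor SNORD3C with library totals (0.98), upper quartile scaling (1.11), DESeq2 (1.17) or no filter (0.76). SNORD3B-2 was at 0.16 with a minimum of 50 counts in 2 libraries.

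With each library left out, on the same tested genes and also with the expression filter applied again (an alternative chosen after seeing the data), SNORD3A ran from 0.95 to 1.72, SNORD3C from 0.84 to 1.58, the sum from 0.84 to 1.57, SNORD3B-1 from -0.51 to -0.19 and SNORD3B-2 from -0.95 to 0.21. On the same tested genes alone the ranges were 1.04 to 1.66 for SNORD3A, 0.84 to 1.53 for SNORD3C, 0.94 to 1.51 for the sum and -0.73 to 0.21 for SNORD3B-2. SNORD3B-2 was positive without IP 2 (0.21, and 0.11 with the filter again) and without input 1 (0.13 and 0.18). With the filter again SNORD3A and SNORD3C passed without input 1 (edgeR adjusted p = 0.0496 and 0.0257) and the sum did not (0.105). Without input 2 SNORD3A (1.13), SNORD3C (0.87) and the sum (1.01) did not pass, nor did SNORD3C without IP 1 (0.88). The lone library of a group was taken to vary like the other group. The make-up of U3 and all 8 ratios kept their direction under every alternative run for them. With a library left out this was fixed in advance, since both IP libraries already lay on one side of both inputs. The FPKM alternatives only weighted the same counts by gene length. The log2 difference of the ratio to other C/D box snoRNAs was 1.29 with SNORD17 left out. Of the protein messengers, 4, 7 and 4 of 11 were called lower with the FPKM totals, log2(FPKM + 1) and log2(FPKM + 0.1), where 57.2%, 69.5% and 50.8% of all tested genes were. No protein messenger was left to test at the minimum of 50 counts. Over the whole table, 0 to 116 genes were called higher and 0 to 2548 lower, in place of 99 and 50. The causes of these changes were not tested. IP depth limits single copies most, with 10 SNORD3C and 5 SNORD3B-2 counts in IP 2.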
